A study of Rattus norvegicus with 8 samples.

Results

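The C-type lectin (Clec) family was followed in rat thoracic spinal cord after injury. Its members were taken by name: every gene whose symbol begins with Clec and a digit, on a probe set annotated to that symbol alone. The rule found 33 genes among the 18166 genes measured, each on a single probe set. Clec6a-ps1 is annotated by RefSeq as a transcribed pseudogene, and 6 further Clec symbols of RefSeq (Clec2h, Clec3b, Clec12a, Clec18a, Clec19a and Clec20a) were not analysed here.

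Messenger RNA was measured on 8 Affymetrix Rat Gene 2.0 ST arrays, 4 of thoracic cord after spinal cord injury (SCI) and 4 of cord after a laminectomy without injury (sham). The animals were Long Evans males weighing about 400 g at an age of about 175 days, and no genotype, transgene or drug is given for either group. All rats of both groups had 4 weeks of recovery and then a diet with 40% fat, for a stated total of 8 weeks. The tissue is given as thoracic segments 10 to 11 in a label and as 11 to 12 in another, and no source used here gives the lesion's level. Values are signals after RMA and were read as log2. The base is not stated and was taken from the method and the range of the values, and every fold rests on it: a difference of 1 is then a 2-fold change. A gene was called when its SCI minus sham difference had an adjusted p under 0.05 in limma's moderated test, with Benjamini-Hochberg adjustment over all 18166 genes.

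C-type lectin domains are compact protein folds, many of which bind sugars in a calcium-dependent way. Many members of the Clec family are single-pass membrane proteins, and a part of these are receptors of myeloid cells. Activating members signal through the kinase Syk, either by a motif in their own tail or by the adaptors FcRgamma (Fcer1g) and DAP12 (Tyrobp), and Card9 relays that signal. Inhibitory members carry a tail motif that recruits the phosphatases SHP-1 (Ptpn6) and SHP-2 (Ptpn11). Many of the genes lie in the natural killer gene region, where close relatives stand side by side.

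The arrays were alike in scale, with medians of 3.77 to 3.81 in SCI and 3.73 to 3.78 in sham over the whole table. Correlations between arrays were 0.972 to 0.981 within groups and 0.963 to 0.973 between groups. The tissue carried its own defining markers: the mean over 11 neuron markers was 8.90 to 9.18 in SCI arrays and 9.48 to 9.64 in sham arrays, and that over 8 oligodendrocyte markers 9.31 to 9.52 in SCI arrays and 9.94 to 10.00 in sham arrays. The labels describe the arrays as separate samples but tie none to a numbered animal, so p-values measure the spread between these arrays, which may be technical. In bulk tissue, fewer or more cells of a type and less or more RNA per cell cannot be told apart.

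The promoters of 6 of the 7 raised genes are shown: the 4 Clec4a genes because they adjoin and all rose, and Clec7a and Clec2gl1 because they rose by over 2 log2 units. Each is the 300 bases around the start given by RefSeq on build GRCr8 (250 before, 50 after), read 5′ to 3′ along the gene. Clec7a lies at chr4:164599778-164600077 on the minus strand. Clec4a1 lies at chr4:157845561-157845860 on the plus strand, Clec4a3 at chr4:157886508-157886807 on the plus strand, Clec4a2 at chr4:157934346-157934645 on the plus strand and Clec4a at chr4:158100365-158100664 on the plus strand. Clec2gl1 lies at chr4:163992121-163992420 on the plus strand. Capitals mark GAGGAA, a core read by the myeloid factor PU.1, and TGTGGT, a core read by RUNX factors, on either strand.
Clec7a: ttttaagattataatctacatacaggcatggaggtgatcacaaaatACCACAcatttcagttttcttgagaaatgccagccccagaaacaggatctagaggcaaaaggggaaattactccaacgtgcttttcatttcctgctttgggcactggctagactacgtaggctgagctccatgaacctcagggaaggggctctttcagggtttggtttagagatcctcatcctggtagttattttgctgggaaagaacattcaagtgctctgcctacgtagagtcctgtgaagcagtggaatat
Clec4a1: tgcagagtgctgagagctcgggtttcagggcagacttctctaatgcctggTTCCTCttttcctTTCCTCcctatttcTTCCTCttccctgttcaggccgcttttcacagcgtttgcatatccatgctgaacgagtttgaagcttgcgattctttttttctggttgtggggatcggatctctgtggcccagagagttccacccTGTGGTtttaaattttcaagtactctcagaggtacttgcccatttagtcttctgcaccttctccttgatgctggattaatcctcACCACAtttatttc
Clec4a3: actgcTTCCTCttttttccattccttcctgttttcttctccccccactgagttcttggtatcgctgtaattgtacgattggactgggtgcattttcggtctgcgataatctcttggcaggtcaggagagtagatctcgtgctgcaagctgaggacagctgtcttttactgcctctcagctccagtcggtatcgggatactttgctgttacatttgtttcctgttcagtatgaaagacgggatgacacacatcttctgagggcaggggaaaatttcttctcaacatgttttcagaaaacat
Clec4a2: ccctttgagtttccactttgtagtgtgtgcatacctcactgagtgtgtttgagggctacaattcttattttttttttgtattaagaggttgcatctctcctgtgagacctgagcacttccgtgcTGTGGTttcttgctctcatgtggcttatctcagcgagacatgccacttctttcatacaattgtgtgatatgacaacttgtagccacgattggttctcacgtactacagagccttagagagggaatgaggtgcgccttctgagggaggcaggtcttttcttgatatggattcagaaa
Clec4a: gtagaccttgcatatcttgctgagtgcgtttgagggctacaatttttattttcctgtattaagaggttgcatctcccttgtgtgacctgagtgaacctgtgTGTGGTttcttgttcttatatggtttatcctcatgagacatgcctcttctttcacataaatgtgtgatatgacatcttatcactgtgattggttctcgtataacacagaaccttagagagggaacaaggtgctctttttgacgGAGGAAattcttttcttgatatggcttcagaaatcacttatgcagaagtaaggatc
Clec2gl1: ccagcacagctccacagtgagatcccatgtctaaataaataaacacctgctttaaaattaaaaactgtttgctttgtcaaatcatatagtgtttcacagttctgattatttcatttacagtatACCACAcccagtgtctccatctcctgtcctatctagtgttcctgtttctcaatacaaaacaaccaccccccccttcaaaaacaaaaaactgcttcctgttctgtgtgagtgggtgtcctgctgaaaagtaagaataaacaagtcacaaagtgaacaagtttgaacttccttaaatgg

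Promoters were found for 27 of the 33 members. The letters TGTGGT stood in 11 of the 27, or 40.7%, against 17.3% of all 33469 promoters of that length. Of the 7 members that rose in SCI, 6 held it, as did 5 of the 20 other members with a promoter; this split was not tested. The letters GAGGAA stood in 9 of the 27, or 33.3%, against 27.6% of all promoters, and in 3 of the 7 that rose beside 6 of the 20 others. The longer PU.1 letters GAGGAAGT, which overlap the shorter ones, stood in none of the 27 and in 2.42% of all. The C/EBP letters TTNCNNAA stood in 20 of the 27 (74.1%) against 41.3% of all, and in 6 of the 7 that rose beside 14 of the 20 others. The AP-1 letters TGANTCA stood in 1 member promoter (Clec2e) against 7.33% of all promoters, and the E-box letters CACGTG in 1 (Clec14a) against 6.42%. All motifs were searched on both strands, and these are matches of letters only.

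Of the 33 members, 9 were called (27.3%), against 14.2% of all genes. Rises made up most of them: 7 members were higher in SCI (21.2%, against 7.10% of all genes), namely Clec7a, Clec2gl1, Clec4a1, Clec4a3, Clec2g, Clec4a and Clec4a2. The other two, Clec2l and Clec1b, were lower (6.06%, against 7.06% of all genes). Both groups were fully separated in 9 members (27.3%, against 20.3% of all genes), and these were the called ones. A called difference of at least 1 log2 unit was found in 4 members (12.1%, against 1.60% of all genes), all of them rises. With genes of a mean under 5 left out, 2 such members remained, Clec7a and Clec4a1. The median difference over the members was 0.10, beside -0.01 over all genes. Per array, the median member value was 3.13 to 3.22 in SCI and 2.75 to 2.90 in sham.

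**Figure D1:**
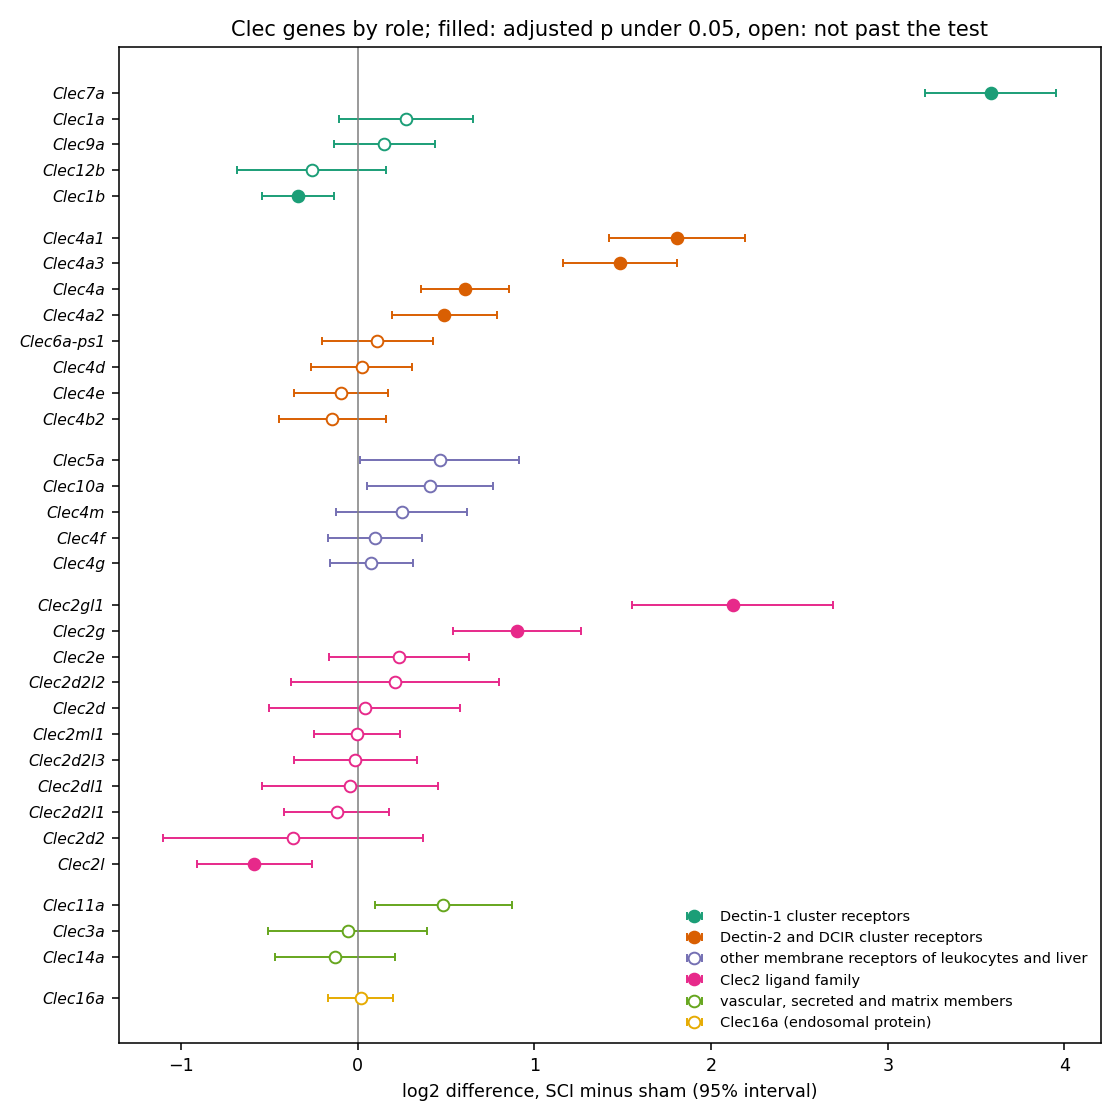
The log2 difference (SCI minus sham, x axis) of each of the 33 Clec genes with its 95% interval, grouped by role. Filled points passed the test and open points did not. Clec7a stands at 3.58, and the 24 open points lie between -0.37 and 0.48.

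Signal was low for most of the family: 28 of the 33 members had a mean under 5 over the 8 arrays, and array values spanned 0.99 to 8.58. The spread between arrays of a group also differed between members, with SDs of 0.03 to 0.79 and a median of 0.25. Differences in uncalled members were thus bounded with unequal precision. Of the 24 uncalled members, 23 had a 95% interval wholly within 1 log2 unit of 0, and 12 within 0.5. No measure of background was used here. For members near background, a narrow interval bounds the change of the signal and not that of the transcript.

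Among the receptors of the Dectin-1 cluster, 1 of 5 rose, 1 fell and 3 did not pass the test, with a median difference of 0.15. The gene that rose was Clec7a (probe set 17795399), which encodes Dectin-1, the beta-glucan receptor of macrophages and microglia that signals through Syk. It read 8.40, 8.43, 8.58 and 7.98 in the SCI arrays, against 4.49, 4.59, 5.16 and 4.79 in the sham arrays. Every SCI array lay above every sham array, and the gap between the groups exceeded the range within either. The means were 8.35 ± 0.26 in SCI and 4.76 ± 0.30 in sham (SD, n = 4 each), a difference of 3.58 (SE 0.17, 95% interval 3.21 to 3.96, limma adjusted p = 1.6e-06). That is a 12.0-fold higher signal, the largest change among the 33 members.

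Clec1b (probe set 17787560), the receptor CLEC-2 by which platelets bind podoplanin, fell. It read 2.41, 2.30, 2.34 and 2.29 in SCI, against 2.71, 2.75, 2.72 and 2.51 in sham. The groups did not overlap. The means were 2.34 ± 0.05 in SCI and 2.67 ± 0.11 in sham (SD, n = 4 each), a difference of -0.34 (SE 0.09, limma adjusted p = 0.0333). The call was lost when any single array other than sham 4 was left out (adjusted p 0.0545 to 0.0845), and the signal is low in both groups. Its ligand podoplanin (Pdpn) rose by 1.55 (SE 0.12, limma adjusted p = 2.7e-05). Platelet and blood markers, of which 1 of 5 tested rose (Pf4, by 1.40, SE 0.25) and none fell, had list means of 4.67 to 5.26 in SCI and 4.36 to 5.09 in sham. Their part in the Clec1b difference was not tested.

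The 3 uncalled genes of this cluster were Clec9a, Clec1a and Clec12b. Clec9a, the dendritic cell receptor for actin of dead cells, differed by 0.15 (SE 0.13, limma adjusted p = 0.526). Clec1a, known in mouse and human as a receptor for fungal melanin, differed by 0.27 (SE 0.17, adjusted p = 0.362). For Clec12b, an inhibitory receptor, the difference was -0.26 (SE 0.19, adjusted p = 0.440).

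**Figure D2:**
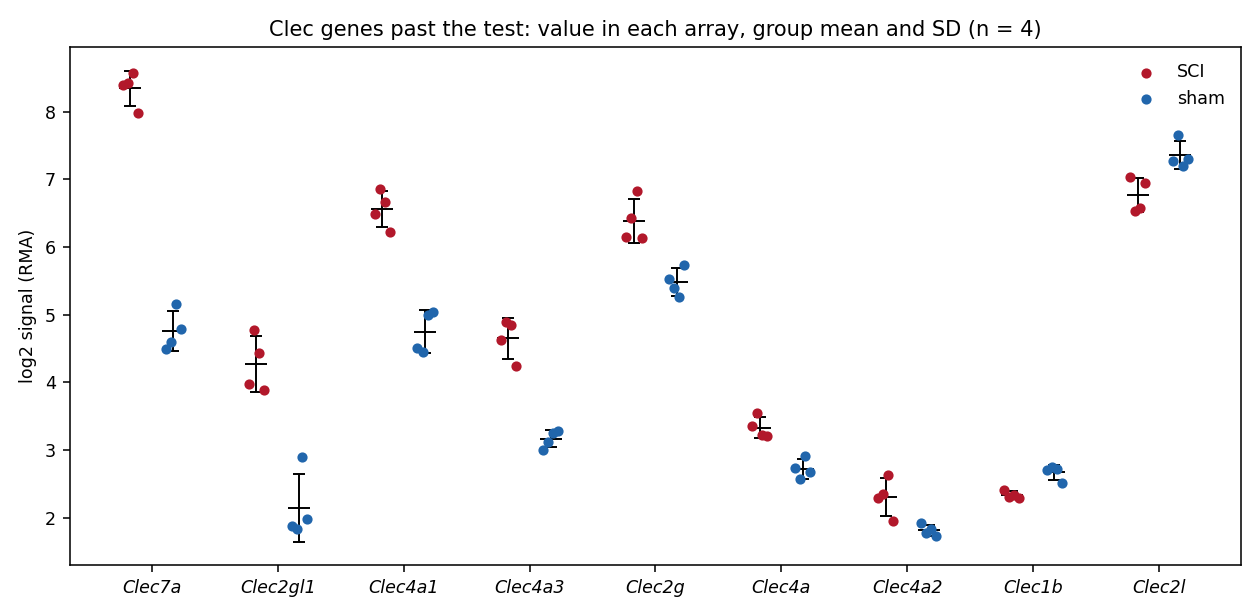
The log2 signal (y axis) of the 9 called Clec genes in each array, SCI left of sham, with the group mean and SD (n = 4 each). The SCI points lie above the sham points for 7 genes and below them for Clec2l and Clec1b.

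In the cluster of Dectin-2 and DCIR genes, 4 of 8 members rose, none fell and 4 did not pass the test, with a median difference of 0.30. The 4 that rose were the Clec4a genes, RefSeq synonyms Dcir4, Dcir3, Dcir2 and Dcir1. DCIR proteins are lectin receptors of dendritic cells and macrophages. In mouse, DCIR1 and DCIR2 carry an inhibitory tail motif, whereas DCIR3 and DCIR4 lack it.

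Clec4a1 (Dcir4, probe set 17786945) read 6.49, 6.85, 6.66 and 6.22 in SCI, against 4.51, 4.45, 5.00 and 5.04 in sham. All SCI arrays were above all sham arrays. The means were 6.56 ± 0.27 in SCI and 4.75 ± 0.31 in sham (SD, n = 4 each), a difference of 1.81 (SE 0.17, limma adjusted p = 1.23e-04), or 3.50-fold. Clec4a3 (Dcir3, probe set 17786952) read 4.62, 4.89, 4.85 and 4.24 in SCI, against 3.01, 3.12, 3.25 and 3.29 in sham. Its groups were likewise separate, and it rose by 1.48 (SE 0.15, limma adjusted p = 1.38e-04), or 2.80-fold.

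The rises of the next 2 genes in the row were smaller. Clec4a (Dcir1, probe set 17786970) read 3.36, 3.54, 3.22 and 3.20 in SCI, against 2.73, 2.57, 2.92 and 2.68 in sham. The lowest SCI array was above the highest sham array, and the difference was 0.61 (SE 0.11, limma adjusted p = 0.00537). Clec4a2 (Dcir2, probe set 17786961) read 2.29, 2.36, 2.63 and 1.95 in SCI, against 1.91, 1.78, 1.84 and 1.73 in sham. SCI 4 lay close above sham 1 without overlap, with a difference of 0.49 (SE 0.13, limma adjusted p = 0.0338). That call was lost when any single array other than SCI 4 was left out (adjusted p 0.0516 to 0.0886), and the Clec4a call when SCI 3, sham 1 and sham 2 were left out together (adjusted p = 0.0762).

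The other 4 genes of this cluster did not pass the test. Clec4e encodes Mincle and Clec4d its partner MCL, both receptors for mycobacterial glycolipids that signal through FcRgamma. Clec4e read 1.75, 2.14, 2.09 and 2.08 in SCI, against 2.24, 2.03, 2.26 and 1.92 in sham, a difference of -0.09 (SE 0.12, limma adjusted p = 0.695). Clec4d read 2.24, 1.83, 2.39 and 1.90 in SCI, against 2.04, 2.11, 2.06 and 2.07 in sham, a difference of 0.02 (SE 0.13, adjusted p = 0.946). In both genes the groups overlapped. Their mean signals were low, at percentiles 10.7 (Clec4e) and 10.9 (Clec4d) of all genes, so a change of the transcript could be missed. Clec4b2 (synonym Aplra1) differed by -0.15 (SE 0.14, adjusted p = 0.573), and the pseudogene Clec6a-ps1 by 0.11 (SE 0.14, adjusted p = 0.699).

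The Clec2 family holds 11 of the members, of which 2 rose, 1 fell and 8 did not pass the test, with a median difference of -0.01. Clec2 proteins are membrane lectin-like molecules, and several, such as Clec2d (Ocil), are ligands of Klrb1-type receptors of natural killer cells. Clec2gl1 (probe set 17787531) read 3.98, 4.78, 4.44 and 3.89 in SCI, against 1.88, 1.84, 2.90 and 1.97 in sham. The groups were separate, although sham 3 stood well above the other sham arrays. It rose by 2.12 (SE 0.26, limma adjusted p = 4.86e-04). No measure of background was used here, so no fold is given for raised genes whose sham values all lie under 3 (Clec2gl1, Clec4a and Clec4a2). No source used here gives its role.

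Clec2g (synonym Clrb or Clr11, probe set 17787552) read 6.15, 6.42, 6.83 and 6.14 in SCI, against 5.53, 5.39, 5.27 and 5.74 in sham. All SCI arrays lay above all sham arrays, with means of 6.38 ± 0.32 in SCI and 5.48 ± 0.20 in sham (SD, n = 4 each). The difference of 0.90 (SE 0.16, limma adjusted p = 0.00485) was 1.87-fold. Without SCI 3, sham 1 and sham 2 the adjusted p was 0.062.

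Clec2l, a brain-associated member, was lower in SCI. Probe set 17782582 read 7.04, 6.53, 6.57 and 6.94 in SCI, against 7.28, 7.66, 7.20 and 7.29 in sham. The groups were separate, with a difference of -0.59 (SE 0.15, limma adjusted p = 0.0227). The call was lost without SCI 2 (adjusted p = 0.0692), SCI 3 (0.0625) or sham 2 (0.0575). Neuron markers moved with it: 11 of 11 fell, with a median difference of -0.46, among them Nefm (-0.62, SE 0.10) and Syp (-0.58, SE 0.09). Their part in the Clec2l difference was not tested.

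The other 8 Clec2 genes were Clec2e, Clec2d, Clec2dl1, Clec2d2, Clec2d2l1, Clec2d2l2, Clec2d2l3 and Clec2ml1. Their differences lay between -0.37 (Clec2d2, SE 0.33, limma adjusted p = 0.552) and 0.24 (Clec2e, SE 0.18, adjusted p = 0.464). Clec2d itself read 4.27, 3.60, 3.25 and 4.52 in SCI, against 4.06, 3.85, 3.63 and 3.93 in sham, a difference of 0.04 (SE 0.24, adjusted p = 0.946). The receptor gene Klrb1 differed by -0.02 (SE 0.11, adjusted p = 0.928). The interval of Clec2d2 ran from -1.10 to 0.37, the only one to reach past 1 log2 unit, with sham 4 at 4.02 and the other sham arrays at 2.20 to 2.90.

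None of the 5 other membrane receptors passed the test, and their median difference was 0.25. Clec5a, a myeloid receptor that pairs with DAP12, read 4.32, 3.46, 4.21 and 4.47 in SCI, against 3.51, 3.45, 3.95 and 3.72 in sham. SCI 2 fell among the sham values and the other SCI arrays lay above all of them. The difference was 0.46 (SE 0.20, limma adjusted p = 0.177), and without SCI 2 it was 0.68 (adjusted p = 0.0163).

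Clec10a (synonym Mgl), a galactose-type receptor of macrophages and dendritic cells, read 5.01, 5.28, 5.05 and 4.51 in SCI, against 4.81, 4.55, 4.44 and 4.42 in sham. SCI 4 lay within the sham range. The difference was 0.41 (SE 0.16, limma adjusted p = 0.125), and without SCI 4 it was 0.56 (adjusted p = 0.0183). Clec4f, a Kupffer cell receptor in mouse, differed by 0.10 (SE 0.12, adjusted p = 0.691). Clec4g, a receptor of liver sinusoidal endothelium, differed by 0.08 (SE 0.11, adjusted p = 0.724), and Clec4m (synonym Cd209b), of the DC-SIGN group, by 0.25 (SE 0.17, adjusted p = 0.401).

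The 3 vascular, secreted and matrix members did not pass either. Clec14a, an endothelial protein that binds multimerin-2 (Mmrn2), differed by -0.13 (SE 0.15, limma adjusted p = 0.671), and Mmrn2 by 0.13 (SE 0.11, adjusted p = 0.535). Clec11a, a secreted growth factor for bone and blood progenitors, read 4.66, 4.36, 4.57 and 4.10 in SCI, against 4.24, 4.21, 3.58 and 3.73 in sham. Only SCI 4 fell below some sham arrays, and its difference of 0.48 (SE 0.18, adjusted p = 0.0984) was the largest among uncalled members. Clec3a, a cartilage matrix protein, differed by -0.06 (SE 0.20, adjusted p = 0.901). Clec16a, an endosomal protein of autophagy and mitophagy, read 6.19 ± 0.05 in SCI and 6.18 ± 0.04 in sham (SD, n = 4 each) and a difference of 0.02 (SE 0.08, adjusted p = 0.935).

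By RefSeq's gene order, 26 of the 33 members lie on chromosome 4, all 9 called ones among them. The Dectin-2 and DCIR genes run as Clec4a1, Clec4a3, Clec4a2, Clec4a, Clec4b2, Clec6a-ps1, Clec4d and Clec4e. The first 4 of that run rose and the next 4 did not pass. Of the tested protein-coding genes nearest to Clec4a1 on its other side, the complement receptor gene C3ar1 rose by 1.45 (SE 0.16, limma adjusted p = 2.94e-04), while Necap1 (-0.29, adjusted p = 0.0883) and Foxj2 (0.21, adjusted p = 0.296) did not pass. Past Clec4e, the pheromone receptor genes Vom2r48, Vom2r49 and Vom2r50 did not pass.

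The second run goes from Clec2d2l3 to Clec7a, and in it Clec2gl1, Clec2g and Clec7a rose and Clec1b fell. They are interleaved with uncalled members: Clec2e (0.24) lies between Clec2gl1 and Clec2g, and Clec9a (0.15) and Clec1a (0.27) lie between Clec1b and Clec7a. Beyond Clec7a, Olr1, which encodes the lectin-like receptor for oxidised LDL, rose by 0.95 (SE 0.18, limma adjusted p = 0.00615). Farther on, Tmem52b differed by 0.22 (adjusted p = 0.351) and the autophagy gene Gabarapl1 fell by 0.74 (SE 0.12, adjusted p = 0.00247).

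**Figure D3:**
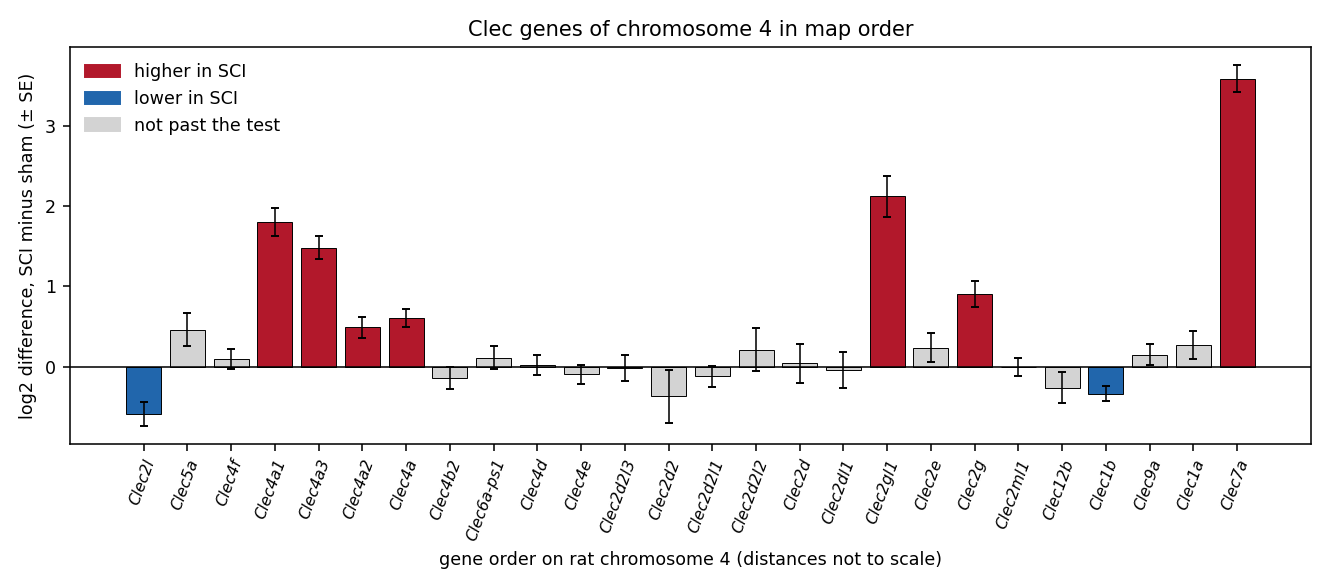
The log2 difference (SCI minus sham, y axis) with its SE for the 26 Clec genes of rat chromosome 4, in map order with distances not to scale. The 4 Clec4a genes rise side by side, while Clec2gl1, Clec2g and Clec7a stand apart among uncalled neighbours.

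Close relatives can share probes or nearly identical target sequence, so a change in a gene can appear on the probe set of its neighbour. Probe sequences were not used here, so shared signal was not tested. No member had a second probe set, and none of the 575 probe sets annotated to several symbols named a Clec gene. Differences between adjoining relatives were unequal: 1.81, 1.48, 0.49 and 0.61 for Clec4a1, Clec4a3, Clec4a2 and Clec4a in map order, and 2.12 for Clec2gl1 beside -0.04 for its neighbour Clec2dl1. Clec2g, whose name Clec2gl1 extends, also rose, by 0.90 (SE 0.16, limma adjusted p = 0.00485), at a higher signal. Whether Clec2gl1 and Clec2g share probe signal was not tested. The pair with the most alike promoters, Clec2d2l1 and Clec2d2l2 (87.3% identical bases), differed by -0.12 (SE 0.13) and 0.21 (SE 0.27), neither past the test. Clec4a and Clec4a2, next at 74.7%, both rose, and Clec2d and Clec2dl1, at 71.7%, were both near 0. Over all 351 pairs of member promoters the median identity was 52.0%, and the fourth pair stood at 58.0%. Identity in a promoter says nothing of identity in the probes, which lie in transcripts.

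Macrophage and pan-myeloid markers rose in the same arrays. For this and the other lists, the share over all genes is 7.10% called higher and 7.06% called lower. Of 20 such genes, 18 were higher and none lower, with a median difference of 1.43 and list means of 7.11 to 7.48 in SCI and 5.87 to 6.11 in sham. Cd68, a lysosomal marker of phagocytes, rose by 4.17 (SE 0.14, limma adjusted p = 8.8e-08), whereas Cd163 (0.17, adjusted p = 0.570) and Ccr2 (0.11, adjusted p = 0.862) did not pass. The lowest value of any of these markers on any array was 3.07. For all 7 raised Clec genes the lowest SCI array was SCI 4, which also had the lowest macrophage mean among SCI arrays (7.11, beside 7.37 to 7.48 in the other SCI arrays). For Clec4a and Clec2g the margin was narrow (3.20 beside 3.22 in SCI 3, and 6.14 beside 6.15 in SCI 1). The same array was lowest among SCI arrays for 6 of the 11 cell type lists, also for homeostatic microglia (6.92), fibroblast and meningeal (7.82), T, B and NK cell (3.41), platelet and blood (4.67) and endothelial markers (5.47). It was the highest SCI array for neuron (9.18), oligodendrocyte (9.52) and, narrowly, astrocyte markers (8.96). SCI 2 was the highest SCI array for 4 of the 7 and SCI 3 for 3.

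To set each raised gene beside the macrophage list, the array's list mean was subtracted from the gene's value and SCI was compared with sham by exact permutation (two-sided, 70 assignments of arrays to groups), whose smallest p is 0.0286. The p-values printed for these comparisons are unadjusted. Clec7a exceeded the list by 2.22 (exact permutation p = 0.0286), with all SCI arrays above all sham arrays. Clec4a1 exceeded it by 0.44 (exact permutation p = 0.0286), and its groups were also separate. The test takes the list mean as given and leaves out the spread of the markers, which differed by 0.11 (Ccr2) to 4.17 (Cd68). Clec7a at 3.58 and Clec4a1 at 1.81 both lie within that range. The 7 genes were also chosen because they rose in these same arrays. Clec2gl1 (0.76, p = 0.0857), Clec4a3 (0.12, p = 0.257) and Clec2g (-0.46, p = 0.0571) had overlapping groups in the same exact test. A gene with little change lies below the list on this scale, as Clec16a did (-1.34, exact permutation p = 0.0286). The smallest p is thus also reached by a gene with little change, and by itself does not set Clec7a or Clec4a1 apart. Clec4a (-0.75) and Clec4a2 (-0.87) had all SCI arrays below all sham arrays on this scale, each with an exact permutation p of 0.0286. Of the 7 raised genes, 2 thus had SCI wholly above sham on this scale, 2 wholly below, and 3 overlapped. The negative values of Clec4a, Clec4a2 and Clec2g are not read as falls.

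**Figure D4:**
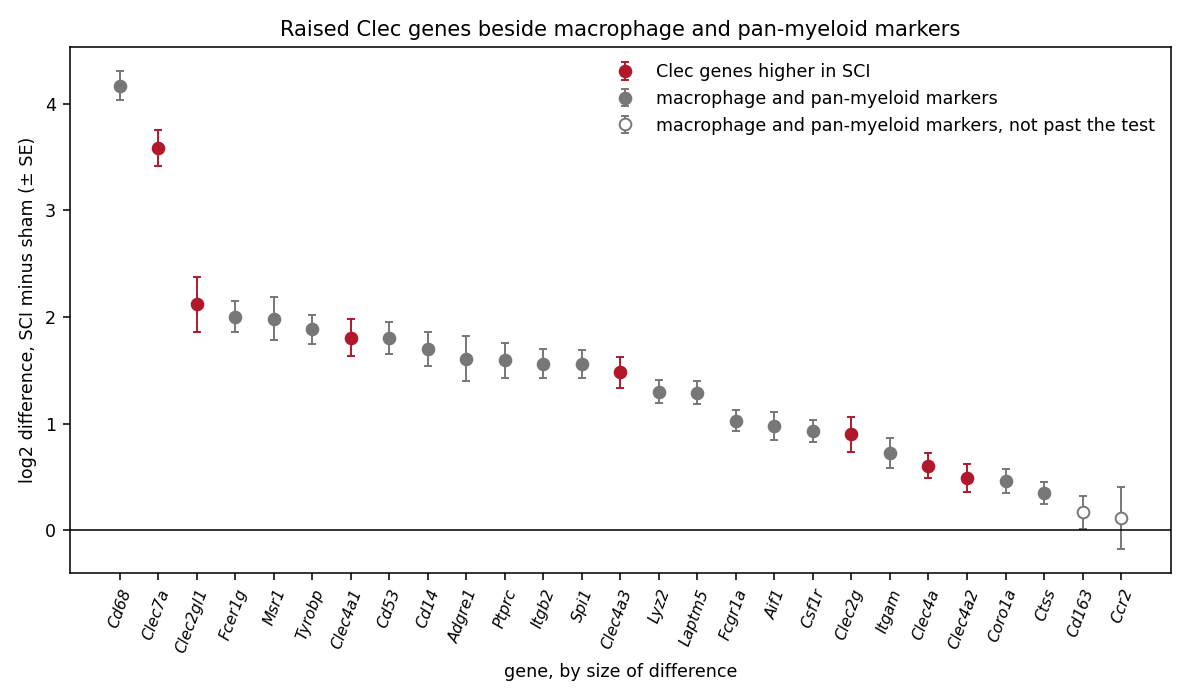
The log2 difference (SCI minus sham, y axis) with its SE for the 7 raised Clec genes in red and the 20 macrophage and pan-myeloid markers in grey, ordered by size. Clec7a at 3.58 is passed only by Cd68 at 4.17, and open points did not pass the test.

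Genes that carry the receptors' signal were counted next. Of 24 tested genes listed for receptor signalling, which is wider than Syk and Card9, 13 rose, none fell and 11 did not pass. The median difference was 0.45. Over all genes 7.10% rose and 7.06% fell. The adaptor genes rose by 1.89 (Tyrobp, SE 0.14, limma adjusted p = 2.34e-05) and 2.00 (Fcer1g, SE 0.15, adjusted p = 2.47e-05). The scaffold gene Lcp2 rose by 1.44 (SE 0.13, adjusted p = 8.14e-05) and the kinase gene Syk by 1.27 (SE 0.14, adjusted p = 2.39e-04). Card9 did not pass, at 0.20 (SE 0.15, adjusted p = 0.447). Nor did Bcl10 (0.16, adjusted p = 0.463), Malt1 (0.42, adjusted p = 0.118) and Plcg2 (0.21, adjusted p = 0.401). Rel (0.43, adjusted p = 0.154) and Relb (0.32, adjusted p = 0.278) did not pass either, whereas Nfkb1 rose by 0.37 (adjusted p = 0.0343). Tyrobp and Fcer1g belong to the macrophage list too.

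All 3 phosphatase genes of the inhibitory members passed the test, and in both directions. Ptpn6 rose by 0.93 (SE 0.11, limma adjusted p = 3.57e-04) and Inpp5d by 0.89 (SE 0.12, adjusted p = 0.00101), while Ptpn11 fell by 0.42 (SE 0.10, adjusted p = 0.0159). Of 16 tested genes for ligands and partners, 5 rose and none fell, with a median difference of 0.16. Beside Pdpn these included Vim, which encodes vimentin (1.19, SE 0.11, adjusted p = 1.23e-04), and Anxa1, an annexin (1.14, SE 0.16, adjusted p = 0.00105).

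Genes with a C-type lectin domain outside the Clec names were set beside the family: of 48 tested, 8 rose and none fell, with a median difference of 0.08. Of the Clec members 21.2% rose, and of all genes 7.10%. Mrc1, the macrophage mannose receptor, rose by 1.29 (SE 0.16, limma adjusted p = 5.11e-04). Cd72, an inhibitory receptor of B cells and macrophages, rose by 0.71 (SE 0.10, adjusted p = 0.00108) and the collagen receptor gene Mrc2 by 0.54 (SE 0.10, adjusted p = 0.00425).

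Markers of other cell types moved to unequal extents, to be set beside the 7.10% of all genes that rose and the 7.06% that fell. Of the genes listed as homeostatic microglia markers, 5 of 9 tested rose and none fell (median 0.45). The smallest p-values were those of Trem2 (1.61, SE 0.16), Olfml3 (1.14, SE 0.16) and P2ry13 (0.68, SE 0.12). Macrophages also carry Trem2, and it is not particular to the homeostatic state. The 4 that did not pass were P2ry12 (0.45, limma adjusted p = 0.0853), Selplg (-0.29, adjusted p = 0.0715), Tmem119 (-0.10, adjusted p = 0.779) and Sall1 (-0.10, adjusted p = 0.698). In Selplg every SCI array lay below every sham array. Dendritic cell markers rose in 2 of 9 (median 0.05), Itgax by 1.56 (SE 0.17) and Cd74 by 1.12 (SE 0.22), with list means of 4.99 to 5.13 in SCI and 4.75 to 4.78 in sham. The other 7 did not pass, with differences from -0.35 (Flt3, adjusted p = 0.138) to 0.275 (Cadm1, adjusted p = 0.124). Neutrophil markers rose in 2 of 12 (median 0.03), Mmp8 by 1.43 (SE 0.20) and Csf3r by 1.11 (SE 0.17). Of 15 T, B and NK cell markers 4 rose (median 0.17), namely the coreceptor genes Cd8b by 2.58 (SE 0.14), Cd8a by 1.48 (SE 0.12) and Cd4 by 0.95 (SE 0.12), and the CD3 gene Cd3g by 0.49 (SE 0.11). The other CD3 genes did not pass, with Cd3d at 0.18 (limma adjusted p = 0.530) and Cd3e at 0.13 (adjusted p = 0.645). Rat macrophages can carry CD4 and CD8 as well. None of these 4 lists held a gene that fell.

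Endothelial markers rose in 1 of 10 (Cdh5, 0.68, SE 0.14, list median -0.03), near the 7.10% of all genes that rose. Fibroblast and meningeal markers rose in 7 of 11 and fell in 1 (median 0.75), with Col1a2 at 1.00 (SE 0.13), Col1a1 at 0.93 (SE 0.17) and Thy1, which neurons also carry, at -0.52 (SE 0.10). Astrocyte markers rose in 2 of 8 and fell in 1 (median 0.10), with Gfap at 0.81 (SE 0.09), Gja1 at 0.59 (SE 0.10) and Slc1a2 at -0.39 (SE 0.11). Oligodendrocyte markers fell in 6 of 8 and none rose (median -0.64), with Mog at -0.78 (SE 0.10), Mbp at -0.70 (SE 0.09) and Ermn at -0.78 (SE 0.11). The part of any of these cell types in the Clec differences was not tested.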

How the data were processed

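Per the submitters' processing notes, the authors made the deposited values, read here as log2, with Affymetrix Expression Console and RMA, a method that subtracts background, quantile-normalizes the arrays and reduces each probe set to a single value; no version, probe library or build is given in the sources used here. Per the labels' protocols, TRIzol and a column kit were used to extract RNA, which was then biotin-labelled. Of 36685 probe sets, 18511 carried 1 gene symbol in the platform annotation, 575 several and 17599 none; where a symbol had several, that with the highest 8-array mean was kept, giving 18166 genes. All 33 Clec genes matched RefSeq (GRCr8) by gene ID. The number of arrays, 4 a group, limits the precision.

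Groups were compared with limma 3.58.1 (lmFit and eBayes, R 4.3.3), tested on simulated data first, on the deposited log2 values with no filter or covariate, adjusted over all genes. No probe set held a Clec symbol among several, so the fit over all probe sets serves only as an alternative. The members, roles and gene lists were chosen with earlier results of these data known, and 6 members absent from the role table were placed by symbol. Every member is named, and called members have every array value. Each list is given by up to 3 of its genes of smallest p. For some lists, direct partners of members and further genes were added. Alternatives were centring or quantile normalization, the lowest probe set, leaving out genes with a mean under 5, all probe sets, trend and robust eBayes, array weights, the title number as a covariate, leaving out each array, and leaving out 3 arrays that an earlier principal component analysis set apart.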

Additional observations from a re-analysis of the deposited data

Results flagged for a closer look

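In each of 66 groups of 4 arrays (33 genes, 2 groups) the gap of the highest or lowest array to its neighbour was divided by the group's range and set against Dixon's 95% critical value for 4 samples. It was passed in 3 groups, and chance flags about 1 in 20. Clec2d2l2 read 2.47 in SCI 4, far above the other SCI arrays (1.16 to 1.23), with a ratio of 0.941; its difference was 0.21 with that array and -0.11 without it, neither past the test. Clec2gl1 read 2.90 in sham 3, above the other sham arrays (1.84 to 1.97), with a ratio of 0.871; without sham 3 its difference was 2.37 (limma adjusted p = 1.55e-04), against 2.12 with it. Clec4e read 1.75 in SCI 1, below the other SCI arrays (2.08 to 2.14), with a ratio of 0.838.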

How the results depend on the processing

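Over 17 alternative settings no called difference changed sign, and Clec7a (3.29 to 3.72), Clec4a1 (1.5 to 1.92), Clec4a3 (1.31 to 1.62) and Clec2gl1 (1.78 to 2.37) kept their calls wherever tested. Calls were lost for Clec1b in 11 of 16 settings, Clec4a2 in 10 of 16, Clec2l in 6 of 17, Clec2g in 1 of 17 and Clec4a in 1 of 16. Leaving out genes with a mean under 5 left 8271 genes, of which 3072 (37.1%) passed, and 41.2% of those calls were rises. Of the 5 members left, 3 were higher and 1 lower, with a median difference of 0.90, beside -0.05 over all genes. With all probe sets of the table, 1441 genes passed in place of 2572 and 0 members were lower. With the title number as a covariate, 1356 genes passed and 0 members were lower. These numbers were 4, 6, 7 and 8 in SCI and 5, 9, 10 and 11 in sham, so the covariate partly follows the group. An effect of the number and a loss of precision cannot be told apart. With trend and robust eBayes, 3282 genes passed and 1 member was lower. Without SCI 3, sham 1 and sham 2 together, 847 genes passed, with 4 members higher and 0 lower, and the excess over the macrophage list was 2.02 for Clec7a and 0.23 for Clec4a1. Leaving out 1 array gave 1703 to 2540 genes, 0 to 2 members lower, 6 to 8 higher and a median of 0.0377 to 0.143. No paired analysis was possible because the labels' numbers pair no samples. Low signal limits precision: 28 of the 33 members have a mean under 5.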
